A study of Mus musculus with 7 samples.

Results

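Chromatin accessibility was examined at 37 genes of glucose breakdown and of the response to low oxygen in mouse regulatory T cells (Treg cells) with and without Opa1. The genes comprised 4 transporters of glucose and lactate, 16 enzymes of glycolysis and its control, 5 enzymes that act on pyruvate and lactate, 5 regulators of the hypoxia response and 7 genes induced by it. A peak, an interval of open DNA, was taken for a gene when it overlapped the gene, or when it lay within 100 kb of it and the gene was the nearest protein-coding gene. This gave 159 of the 50213 peaks, at 36 of the 37 genes. Of these, 61 lay outside the gene. Nearness does not show which gene such a peak acts on, and this was not tested. No peak was assigned to Pfkl, the liver-type phosphofructokinase subunit.

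The assay was ATAC-seq, in which a transposase inserts sequencing adapters into open DNA. WT Treg cells were measured in 4 libraries from mixed bone marrow chimera mice whose donor marrow carried Foxp3-Cre, and Opa1 KO Treg cells in 3 libraries from chimeras whose donor marrow carried Foxp3-Cre and floxed Opa1. In both groups this marrow was mixed in equal parts with CD45.1+ marrow, and CD45.2+ CD45.1- CD4+ Foxp3-YFP+ cells were sorted from the spleen, so the controls carried Cre too. Cre is driven by Foxp3, the defining transcription factor of Treg cells, so the deletion is limited to cells that have expressed it. The GTPase Opa1 fuses the inner membranes of mitochondria and shapes their folds. The labels give no ages.

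Glycolysis splits glucose into pyruvate in the cytosol, and lactate dehydrogenase turns pyruvate into lactate when it is not oxidised in mitochondria. Treg cells are known to rely on mitochondrial oxidation more than effector T cells do. Hif1a and Epas1 encode the oxygen-sensitive subunits of the hypoxia-inducible factors (HIF), which bind short sites with the core ACGTG or GCGTG and switch on most glycolytic genes. When oxygen is present, the prolyl hydroxylases Egln1 and Egln3 mark these subunits and Vhl, part of a ubiquitin ligase, sends them to be degraded.

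The starts of 34 of the 37 genes were in the RefSeq promoter table (GRCm38.p6), and 33 of these genes had a start inside a peak. The 250 bases before the start are shown for 5 of these genes. Pgk1 had the most open start peak per kb, and Ankrd37, Hif1a, Ldhb and Aldoa had the start peaks with the smallest unadjusted p. Capitals mark ACGTG or GCGTG on either strand, so that CACGT and CACGC are the same letters read on the other strand. Each is written 5′ to 3′ on the strand of its gene.
Pgk1 (chrX:106186850-106187099, plus strand): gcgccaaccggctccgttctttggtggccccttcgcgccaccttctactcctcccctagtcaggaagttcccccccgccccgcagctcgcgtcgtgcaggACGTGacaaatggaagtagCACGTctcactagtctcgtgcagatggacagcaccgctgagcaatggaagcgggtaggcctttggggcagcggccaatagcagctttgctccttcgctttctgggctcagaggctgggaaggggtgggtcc
Ankrd37 (chr8:45999851-46000100, minus strand): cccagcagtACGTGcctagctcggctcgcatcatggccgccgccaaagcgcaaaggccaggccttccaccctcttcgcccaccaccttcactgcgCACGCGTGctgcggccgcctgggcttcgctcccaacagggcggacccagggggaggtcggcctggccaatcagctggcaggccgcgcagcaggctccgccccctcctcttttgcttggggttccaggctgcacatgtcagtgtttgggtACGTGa
Hif1a (chr12:73907617-73907866, plus strand): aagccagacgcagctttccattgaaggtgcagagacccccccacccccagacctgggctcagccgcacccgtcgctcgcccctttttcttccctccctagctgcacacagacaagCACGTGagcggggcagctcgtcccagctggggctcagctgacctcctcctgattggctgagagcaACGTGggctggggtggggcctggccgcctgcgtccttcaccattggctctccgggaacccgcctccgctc
Ldhb (chr6:142507958-142508207, minus strand): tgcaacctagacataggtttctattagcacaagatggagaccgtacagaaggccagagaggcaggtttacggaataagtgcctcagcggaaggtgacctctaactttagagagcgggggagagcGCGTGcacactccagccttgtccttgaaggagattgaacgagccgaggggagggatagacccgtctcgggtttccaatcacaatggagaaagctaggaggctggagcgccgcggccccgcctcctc
Aldoa (chr7:126799179-126799428, minus strand): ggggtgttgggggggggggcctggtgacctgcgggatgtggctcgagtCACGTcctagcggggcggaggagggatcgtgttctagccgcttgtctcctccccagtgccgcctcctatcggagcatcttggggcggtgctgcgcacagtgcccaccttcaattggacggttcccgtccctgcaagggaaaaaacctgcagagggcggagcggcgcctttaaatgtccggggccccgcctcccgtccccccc

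Among genes with a start in a peak, ACGTG or GCGTG occurred in the 300 bases from 250 before to 50 after the start in 28 of the 33 listed genes (84.8%), and in 68.5% of all 9206 such genes. Both strands were searched, and CACGTG, which contains ACGTG, was also counted by itself. ACGTG was present at 22 of the 33 genes (66.7%), beside 28.9% of all genes. GCGTG was present at 60.6% of the 33 genes and at 57.0% of all, and CACGTG at 12.1% and 11.7%. The median GC content of these windows was 65.5% in the listed genes and 62.0% over all genes. A match is a description of the letters and does not show a bound site. The list includes genes chosen as induced by hypoxia, so its share of such matches is not independent of that choice. The 22 tested start peaks with ACGTG in the window of a listed gene had a median log2 fold change, KO over WT, of 0.02 with 13 above 0, and the 12 without it had a median of -0.05 with 5 above 0. Over all genes the medians were 0.05 for 2362 entries of start peaks with ACGTG and 0.04 for 5579 without. Together these entries outnumber the 7408 tested start peaks given below, so the counts are not over the same set.

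The 7 libraries held 1534394 to 3384325 counts in peaks. Pairs of libraries were compared on counts halved and rounded up, since both mates of a pair may have been counted. On these, WT replicates 2 and 3 had a chi-square per degree of freedom of 1.01 over 36418 peaks. This is no more than sampling noise if mates were counted in pairs, and counts as deposited were not checked. The other pairs within a genotype had 1.023 to 1.088. WT replicates 2 and 3 may be 1 library deposited under 2 names, and were counted as 1 sample, so that each mean ± SD has n = 3. The tests kept them apart, and with both summed into 1 library no listed peak or gene sum was called. The WT SD leaves out the difference between replicates 2 and 3, so it can be smaller than the spread of the 4 WT libraries. At the Vegfa start, WT values of 12.6, 18.3, 7.23 and 14.8 CPM are given as 13.4 ± 1.2 CPM. The labels do not tie a library to a mouse, so p-values measure the spread between these samples. The peak over the Opa1 start was 36.8 ± 1.17 CPM in WT and 35.0 ± 6.93 CPM in KO, and a start peak does not check a deletion made inside a gene. CPM here is a peak's count put on the same library size in every sample. All 6 Treg and CD4 T cell markers had peaks, summing to 1412.8 to 1515.1 CPM in WT and 1449.7 to 1542.7 CPM in KO. Peaks were also present at 3 of 3 CD8 T cell, 4 of 6 myeloid, 2 of 3 natural killer and 3 of 4 erythroid markers, all but Csf1r, Lyz2, Ncr1 and Alas2. The summed levels of the CD8 T cell, myeloid, natural killer and erythroid lists overlapped between the genotypes. The erythroid sum was 31.3 to 49.5 CPM in WT and 45.8 to 61.9 CPM in KO, and its part in the results was not tested.

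No peak of these genes was called different between the genotypes. Of the 159 peaks, 131 had enough counts to be tested, and 0 had an adjusted p under 0.05 in edgeR's quasi-likelihood test with Benjamini-Hochberg adjustment over all 38041 tested peaks. Over all tested peaks 33 were called, or 0.0867%, and DESeq2 and limma-voom also called 0 of the 131. At an unadjusted p under 0.05, 4 of the 131 were higher in KO (3.05%, beside 4.74% of all peaks) and 8 were lower (6.11%, beside 4.73%). The count of lower peaks was 5 without KO replicate 2. Without WT replicate 1, KO replicate 1 or KO replicate 3, the number called over all peaks was 18, 15 and 16. A lower count at a peak can mean fewer cells with the site open or less open DNA per cell, and these cannot be told apart in bulk cells.

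The median log2 fold change of the 131 peaks was -0.04, beside -0.001 over all tested peaks, with 60 above 0 and 71 below (45.8% above, beside 49.8% of all). The median was 0.01 without WT replicate 4 and 0.02 without KO replicate 2. Groups did not overlap at 4 peaks that were higher in KO, where 4.85% of all peaks did so, and at 5 that were lower, where 4.51% of all peaks did so. The 95% interval of the fold change lay within 1.5-fold either way at 45 of the 131 peaks, or 34.4%, beside 24.2% of all tested peaks. The width of an interval depends on the counts, and the listed and all peaks were not matched for counts. The share of each library's counts that fell in the 159 peaks was 0.424%, 0.422%, 0.415% and 0.419% in WT replicates 1 to 4 and 0.422%, 0.41% and 0.409% in KO replicates 1 to 3. The shares of the genotypes overlapped.

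**Figure D1:**
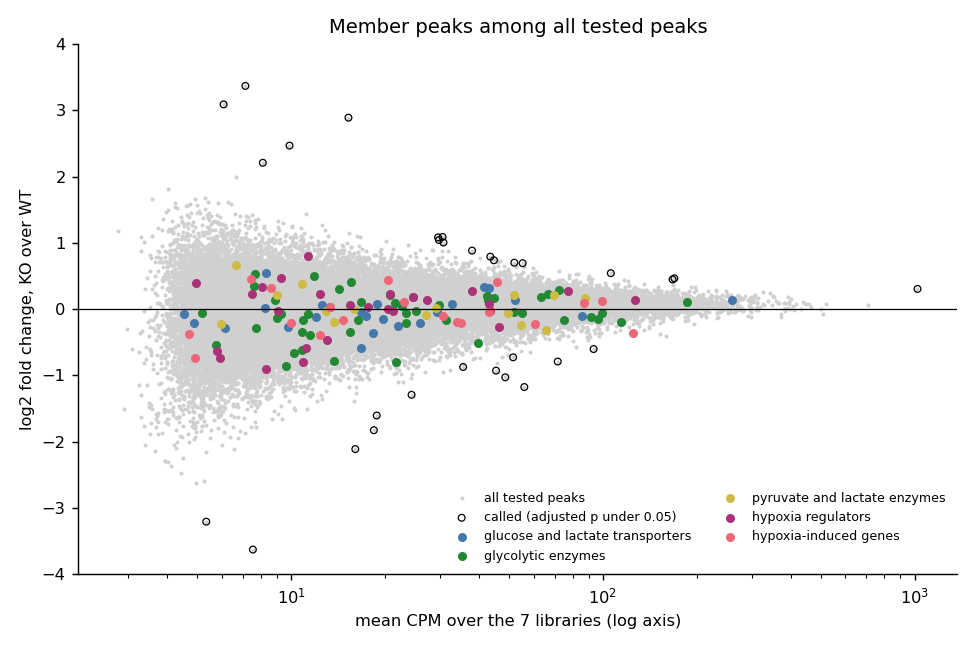
Each point is a tested peak of the listed genes, placed by its mean level in CPM over the 7 libraries (log axis) and its log2 fold change, KO over WT, and coloured by the role of its gene. The points scatter around 0, from -0.90 to 0.79, and spread less at higher levels.

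The transporters move glucose into the cell (Slc2a1 and Slc2a3) and lactate across the membrane (Slc16a1 and Slc16a3). Of their 25 peaks 24 were tested, and none was called or had an unadjusted p under 0.05 in either direction. Of all tested peaks 4.74% were higher in KO and 4.73% lower at that p. The median log2 fold change of the transporter peaks was -0.06. The peak with the highest level of all the listed genes, which is not divided by its length, lay 8350 bp outside Slc2a3 (chr6:122810713-122811635). It held 289.7, 249.1, 229.4 and 225.5 CPM in WT replicates 1 to 4, and 264.0, 277.4 and 283.7 CPM in KO replicates 1 to 3. WT replicate 1 was the highest of the 7 and the other WT libraries lay below the KO libraries, so the groups overlapped (251.5 ± 33.8 and 275.1 ± 10.0 CPM, log2 fold change 0.14, SE 0.084, unadjusted p = 0.0956 and adjusted p = 0.619 by edgeR). The strongest Slc2a1 peak, meaning that with the highest mean CPM and lying 2629 bp before the gene's start, had 85.5 ± 11.3 CPM in WT and 82.5 ± 8.89 CPM in KO. Slc16a3, the lactate exporter of glycolytic cells, had the least open start peak of the 33 genes with one, at 19.5 CPM per kb.

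The enzymes of glycolysis and of its control had 58 peaks, of which 47 were tested. At an unadjusted p under 0.05, 1 was higher in KO (2.13%, beside 4.74% of all tested peaks) and 4 were lower (8.51%, beside 4.73%). None was called, and the median log2 fold change was -0.06. Hk2 encodes the inducible hexokinase, which traps glucose as glucose phosphate. At the peak inside Hk2 (chr6:82740272-82740691, 33763 bp from the start) the values were 40.7, 50.1, 45.8 and 46.4 CPM in WT replicates 1 to 4 and 33.9, 30.3 and 31.3 CPM in KO replicates 1 to 3. Every KO library was below every WT library there (45.0 ± 3.81 and 31.8 ± 1.84 CPM, log2 fold change -0.51, SE 0.18). The unadjusted p of this Hk2 peak was 0.00645 and its adjusted p 0.322 by edgeR.

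A weaker peak 21977 bp outside Hk2 (chr6:82702727-82703048) held 17.4, 16.2, 16.9 and 16.9 CPM in WT and 12.6, 6.95 and 8.63 CPM in KO. The groups did not overlap there either, and the difference, KO over WT, was -0.78 on the log2 scale with an SE of 0.31 (adjusted p = 0.391 by edgeR). The start of Hk2 itself (chr6:82774365-82774780) held 44.2 ± 8.61 CPM in WT and 48.4 ± 3.42 CPM in KO, and its log2 fold change was 0.17 with an SE of 0.17. Of the 5 tested Hk2 peaks 4 had log2 fold changes below 0 and the start alone was above 0. Hk1, the hexokinase found in most tissues, had 120.0 ± 8.97 CPM at its start in WT and 105.4 ± 11.5 CPM in KO, with overlapping groups (adjusted p = 0.609 by edgeR). That Hk1 peak also covers the start of Hk1os, so the counts cannot be given to either gene.

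Pfkfb3 makes a form of fructose bisphosphate that activates phosphofructokinase, the main control point of glycolysis. Among the peaks taken for Pfkfb3, the lowest unadjusted p was at one 41428 bp outside the gene (chr2:11429597-11430002). This peak held 32.0, 23.0, 22.9 and 28.5 CPM in WT and 16.6, 13.9 and 15.1 CPM in KO. All 3 KO libraries were below all 4 WT libraries (27.8 ± 4.55 and 15.2 ± 1.37 CPM, log2 fold change -0.80, SE 0.25, unadjusted p = 0.00209 and adjusted p = 0.253 by edgeR). A low peak inside Pfkfb3 (chr2:11542193-11542465) had 11.2 ± 3.25 CPM in WT and 6.56 ± 2.72 CPM in KO, with overlapping groups (adjusted p = 0.473 by edgeR). At the Pfkfb3 start the values were 40.2 ± 6.04 and 44.9 ± 4.18 CPM. The 8 tested Pfkfb3 peaks fell on both sides, with 4 log2 fold changes above 0 and 4 below.

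Aldoa encodes the main aldolase, which splits a different form of fructose bisphosphate from the one that Pfkfb3 makes. Its start peak (chr7:126799072-126799706) held 60.1, 71.8, 73.5 and 59.0 CPM in WT and 80.1, 82.2 and 78.7 CPM in KO. The KO libraries were all above the WT libraries, and closer to each other (63.9 ± 7.56 and 80.3 ± 1.72 CPM, log2 fold change 0.29, SE 0.13, unadjusted p = 0.0335 and adjusted p = 0.483 by edgeR). Pgk1, which makes ATP from bisphosphoglycerate, had the most open start peak at 370.9 CPM per kb (chrX:106186758-106187261). Its level was 178.5 ± 6.56 CPM in WT and 195.0 ± 20.6 CPM in KO, and KO replicate 2 was the highest library at 218.7 CPM. The starts of Gapdh (59.4 ± 11.1 and 68.0 ± 7.14 CPM), Pkm, the pyruvate kinase of most tissues (61.4 ± 5.82 and 72.0 ± 8.59 CPM), and Eno1, an enolase (54.1 ± 7.18 and 51.2 ± 5.66 CPM), overlapped between the groups.

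The enzymes at the pyruvate branch had 19 peaks, 15 of them tested, with a median log2 fold change of -0.004. At an unadjusted p under 0.05, 0 were higher (beside 4.74% of all tested peaks) and 1 was lower (6.67%, beside 4.73%). The lower peak was the start of Ldhb (chr6:142507813-142508252), the lactate dehydrogenase subunit that prevails in oxidative tissues. Its values were 62.0, 86.6, 79.5 and 61.1 CPM in WT and 64.7, 45.5 and 59.9 CPM in KO. KO replicate 1 lay above WT replicates 1 and 4, so the groups overlapped (68.7 ± 12.4 and 56.7 ± 9.99 CPM, log2 fold change -0.32, adjusted p = 0.488 by edgeR). Ldha, the subunit that prevails in glycolytic cells, had its strongest peak 8631 bp outside the gene, at 51.3 ± 14.1 CPM in WT and 55.9 ± 10.3 CPM in KO. Pdk1 and Pdk3 encode kinases that switch off pyruvate dehydrogenase, and Pdha1 encodes a subunit of that enzyme. A peak 37252 bp outside Pdk1 did not overlap between the groups, at 82.6 ± 1.98 CPM in WT and 93.5 ± 7.67 CPM in KO, with an unadjusted p of 0.178. A weak peak 57542 bp outside Pdk3 was also higher in every KO library, at 5.25 ± 0.896 and 8.42 ± 1.84 CPM (unadjusted p = 0.128).

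**Figure D2:**
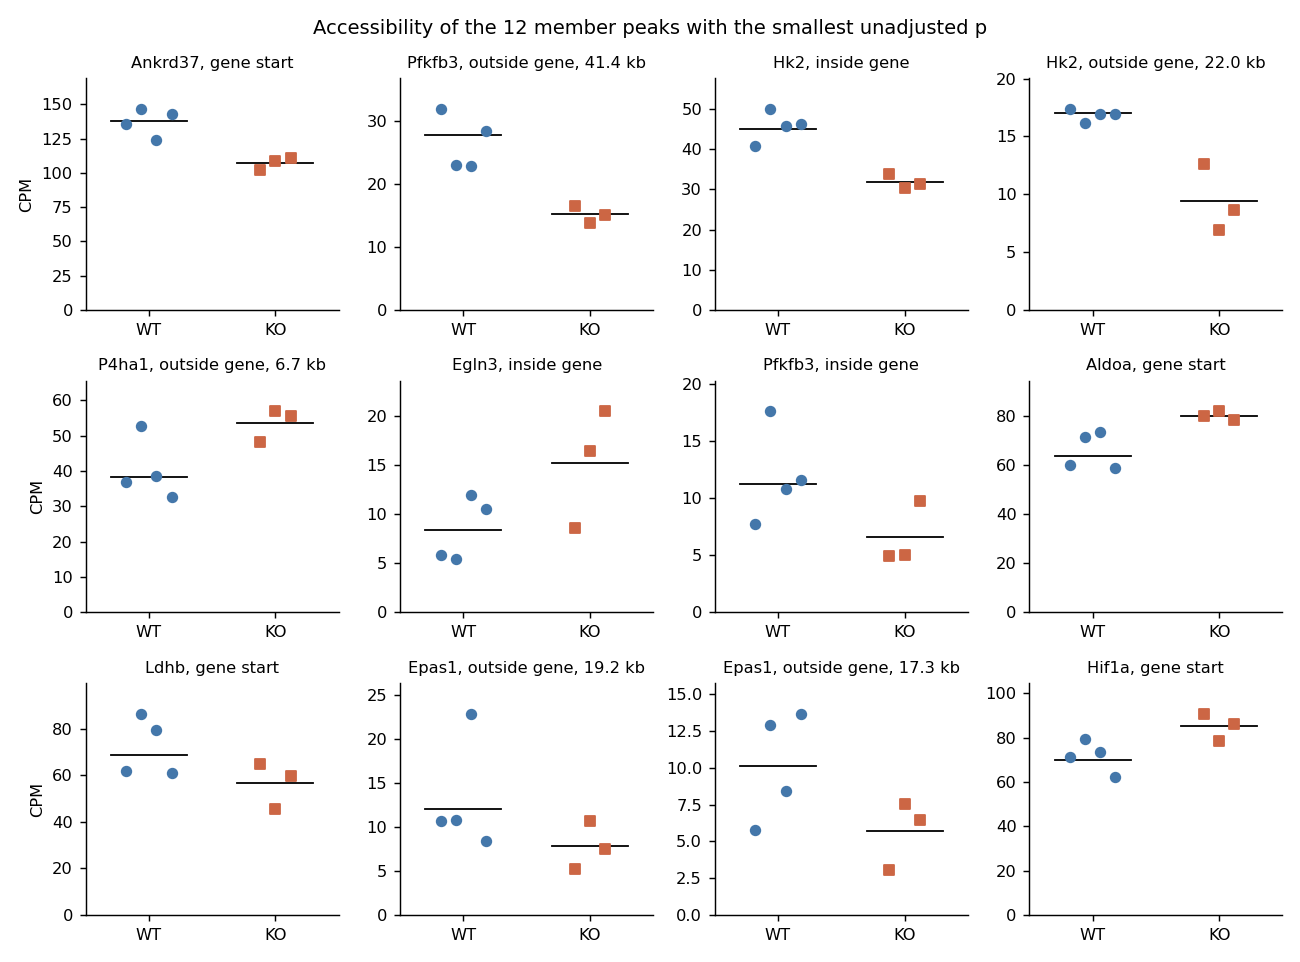
Level in CPM in each library (points) at the 12 tested peaks of the listed genes with the smallest unadjusted p, with the mean of each genotype as a line. WT and KO do not overlap at the Ankrd37, Aldoa and 2 Hk2 peaks and at the Pfkfb3 peak outside the gene, and they overlap at the others.

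The hypoxia regulators had 34 peaks and 26 tested, with a median log2 fold change of 0.06. At an unadjusted p under 0.05, 2 were higher and 2 lower, 7.69% each, beside 4.74% and 4.73% of all tested peaks. The Hif1a start (chr12:73907614-73908133) held 71.2, 79.2, 73.5 and 62.2 CPM in WT and 90.9, 78.4 and 86.3 CPM in KO. WT replicate 2 lay just above KO replicate 2, so the groups overlapped (69.9 ± 7.17 and 85.2 ± 6.34 CPM, log2 fold change 0.27, SE 0.13, unadjusted p = 0.0419 and adjusted p = 0.507 by edgeR). A separate small peak of Hif1a, 518 bp from the start, went the other way at 14.9 ± 0.377 CPM in WT and 10.5 ± 2.52 CPM in KO, with no overlap and an unadjusted p of 0.143. With 13 peaks, 9 of them tested, Hif1a had more than any other of the genes. The strongest lay 58485 bp outside the gene, at 122.5 ± 11.3 and 132.5 ± 19.3 CPM.

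Epas1, the other oxygen-sensitive subunit, is known mainly from endothelial and some myeloid cells. It had 9 peaks, all tested, and a pair of weak ones outside the gene were lower in KO at an unadjusted p under 0.05. These lay 17301 bp and 19232 bp from it, the nearer at 10.1 ± 3.98 CPM in WT and 5.71 ± 2.35 CPM in KO, and had log2 fold changes of -0.90 and -0.80. The groups overlapped at both. WT replicate 3 stood alone at the farther Epas1 peak, with 22.9 CPM beside 8.43 to 10.8 CPM in the other WT libraries. A weak peak inside Egln3 (chr12:54200916-54201169) held 8.36 ± 2.38 CPM in WT and 15.2 ± 6.03 CPM in KO, with overlapping groups (log2 fold change 0.79, unadjusted p = 0.0287 and adjusted p = 0.464 by edgeR). The strongest Egln3 peak, 89119 bp outside the gene, had a log2 fold change of -0.28 (adjusted p = 0.649 by edgeR). The starts of Vhl (15.3 ± 0.922 and 15.8 ± 0.885 CPM) and Egln1 (23.2 ± 3.75 and 26.3 ± 2.5 CPM) were among the less open ones.

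The genes induced by hypoxia had 23 peaks and 19 tested, with a median log2 fold change of -0.11. At an unadjusted p under 0.05, 1 was higher and 1 lower, 5.26% each, beside 4.74% and 4.73% of all tested peaks. The lower peak covered the start of Ankrd37, an ankyrin repeat gene known as a HIF target (chr8:45999735-46000346), and had the smallest p of all 131 peaks. It held 135.6, 146.9, 124.0 and 143.3 CPM in WT replicates 1 to 4 and 102.3, 108.7 and 110.6 CPM in KO replicates 1 to 3. Every KO library was below every WT library, with 138.1 ± 4.48 CPM in WT and 107.2 ± 4.34 CPM in KO. The log2 fold change was -0.36 (SE 0.105, 95% interval -0.57 to -0.15), with an unadjusted p of 0.000932 and an adjusted p of 0.197 by edgeR. Over the alternatives the adjusted p of this Ankrd37 peak ran from 0.0551 to 0.459, so it passed the threshold in none of them.

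P4ha1 encodes a subunit of the collagen prolyl hydroxylase. Its peak 6705 bp outside the gene (chr10:59380009-59380926) held 36.8, 52.8, 38.5 and 32.7 CPM in WT and 48.1, 56.9 and 55.6 CPM in KO. WT replicate 2 lay among the KO libraries (38.4 ± 6.64 and 53.5 ± 4.75 CPM, log2 fold change 0.41, unadjusted p = 0.0182 and adjusted p = 0.419 by edgeR). A P4ha1 peak 3492 bp inside the gene was higher in every KO library, at 18.4 ± 1.86 and 24.1 ± 2.43 CPM, with an unadjusted p of 0.0795. The P4ha1 start overlapped between the groups, at 84.7 ± 7.46 and 89.0 ± 15.9 CPM. Bnip3 and Bnip3l encode receptors that mark mitochondria for autophagy. The Bnip3 start held 36.6 ± 4.98 CPM in WT and 31.1 ± 5.16 CPM in KO, and the strongest Bnip3l peak 93.0 ± 10.3 and 104.5 ± 6.88 CPM. The starts of Vegfa, the growth factor of blood vessels (13.4 ± 1.2 and 13.3 ± 1.8 CPM), and Ero1l, an oxidase of the endoplasmic reticulum (64.4 ± 5.57 and 54.8 ± 7.12 CPM), also overlapped.

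**Figure D3:**
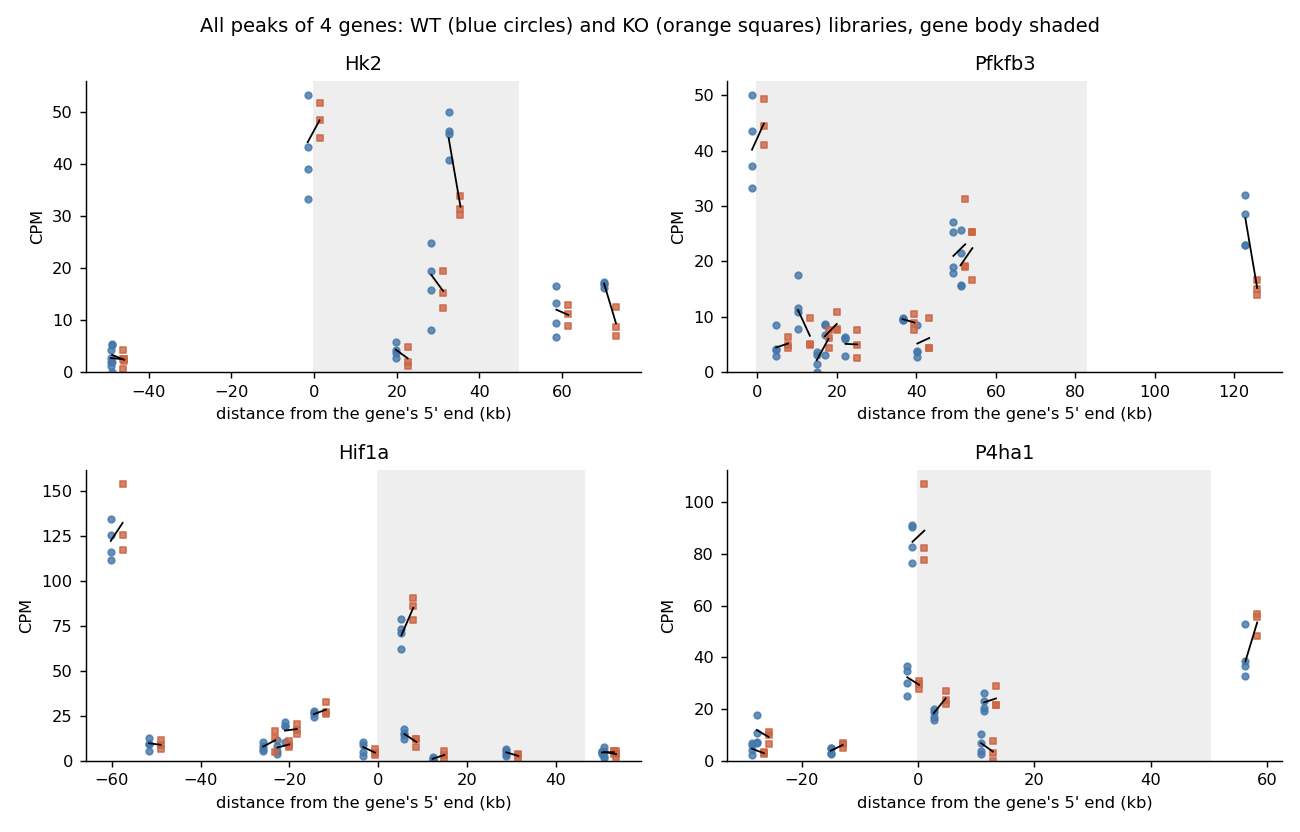
Level in CPM in each library at every peak of Hk2, Pfkfb3, Hif1a and P4ha1, with WT as circles and KO as squares set a little to each side of the peak's distance from the gene's 5′ end in kb, a line joining the genotype means, and the gene shaded. The Hk2 peak with means of 45.0 and 31.8 CPM and the Pfkfb3 peak with 27.8 and 15.2 CPM show KO below WT without overlap, while both start peaks overlap.

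Peaks over a start were measured more precisely than the others. All 34 of them, at 33 genes, were tested, and the median SE of the log2 fold change was 0.167, beside 0.271 for 50 tested peaks elsewhere in the genes and 0.337 for 47 outside them. The start peaks had a median level of 90.6 CPM per kb, and the other classes 39.2 and 28.7 CPM per kb. At an unadjusted p under 0.05, 2 start peaks were higher in KO (Aldoa and Hif1a) and 2 were lower (Ankrd37 and Ldhb), 5.88% each. Over all 7408 tested start peaks, 6.28% were higher and 2.54% lower, and 0.0405% were called. The groups did not overlap at the start peaks of Aldoa, higher in KO, and Ankrd37, lower in KO, where 6.02% and 2.85% of all start peaks did so. The median log2 fold change was 0.01 at the listed starts and 0.04 over all starts, with 52.9% and 58.9% above 0. The 95% interval lay within 1.5-fold either way at 22 of the 34 peaks, 64.7%, beside 55.3% of all start peaks, again not matched for counts.

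After Pgk1, the most open starts per kb were those of Ankrd37 (203.8 CPM per kb), P4ha1 (182.0 CPM per kb) and Hk1 (156.0 CPM per kb). The starts of Ldhb, Hif1a and Gapdh followed at 149.5, 149.1 and 148.3 CPM per kb, levels that lie closer together than the spread between libraries. At the low end were Slc16a3, the second start peak of Ldha at 21.7 CPM per kb, Vhl at 34.3 CPM per kb and Aldoc, a brain-type aldolase, at 35.8 CPM per kb. The start peaks of Hk1, Pdha1 and Slc2a1 also cover the start of another gene.

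**Figure D4:**
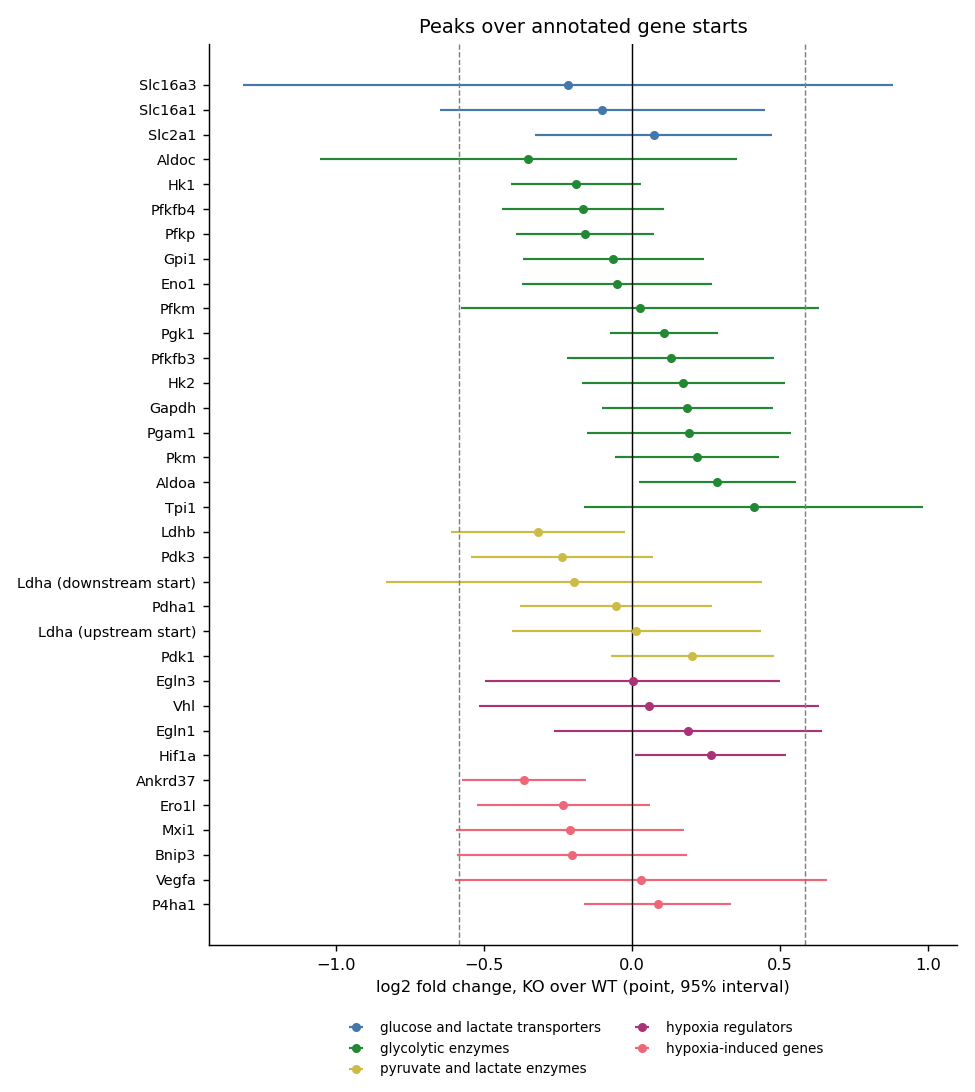
Log2 fold change, KO over WT, with its 95% interval at the 34 peaks over an annotated start of a listed gene, grouped by role, and dashed lines at 1.5-fold either way. The intervals of Ankrd37, Ldhb, Aldoa and Hif1a exclude 0 before adjustment, and none was called.

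Of the 159 peaks, 28 at 16 genes had too few counts to be tested, with mean levels of 0.226 to 5.3 CPM. Groups did not overlap at 3 of them, all higher in KO. Of all 12172 untested peaks, 3.28% were higher in KO without overlap and 5.27% were lower. These were a Pfkfb3 peak at 2.14 ± 0.902 and 6.02 ± 1.64 CPM, an Egln3 peak at 0.627 ± 1.09 and 3.59 ± 1.33 CPM, and a P4ha1 peak at 3.92 ± 0.853 and 6.1 ± 0.919 CPM. They were named after their values were seen.

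Summing the counts of all peaks of a gene gave 13290 genes that could be tested, of which 46 were called (0.346%). The number was 24 without WT replicate 1, 30 without WT replicate 3, 27 without WT replicate 4, 12 without KO replicate 1 and 8 without KO replicate 3. All 36 listed genes with a peak were tested, and 0 were called by edgeR, DESeq2 or limma-voom. At an unadjusted p under 0.05, 1 was higher in KO, Aldoa (2.78%, beside 5.38% of all genes), and 4 were lower, Ankrd37, Hk2, Ldhb and Hk1 (11.1%, beside 6.02%). The lower count was 2 without WT replicate 1, 2 or 3 and 1 without KO replicate 2, and the higher count was 0 without WT replicate 1 or 4 or KO replicate 1 or 3. The log2 fold changes were above 0 for 18 genes and below for 18, with a median of 0.003, and 49.9% of all genes were above 0.

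The Ankrd37 sum has a single peak, the one over its start, and gave a log2 fold change of -0.37 (SE 0.11, unadjusted p = 0.000731 and adjusted p = 0.0967 by edgeR), with an adjusted p of 0.0522 to 0.326 over the alternatives. For Hk2, 8 peaks summed to 146.2, 115.4, 127.2 and 142.2 CPM in WT and 110.5, 110.8 and 121.4 CPM in KO. WT replicate 2 lay within the KO range (136.6 ± 13.4 and 114.2 ± 6.24 CPM, log2 fold change -0.23, adjusted p = 0.385 by edgeR). The sums of Ldhb (log2 fold change -0.28), Hk1 (-0.19) and Hif1a (0.12) had adjusted p of 0.404, 0.434 and 0.577 by edgeR and overlapped between the groups. The Aldoa sum was higher in every KO library (67.7 ± 5.29 and 82.8 ± 2.57 CPM, log2 fold change 0.26, adjusted p = 0.424 by edgeR), as was that of Egln1 (25.2 ± 2.72 and 29.6 ± 0.986 CPM, adjusted p = 0.777 by edgeR). Groups did not overlap for these 2 genes, where 4.68% of all genes were higher without overlap, and for Ankrd37, where 4.94% were lower. The 95% interval lay within 1.5-fold either way for 31 of the 36 genes, 86.1%, beside 64.0% of all genes. The exceptions were Ankrd37, Egln1, Aldoc, Tpi1, the triosephosphate isomerase, and Vhl. Here too the listed genes and all genes were not matched for counts, on which the width of an interval depends.

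**Figure D5:**
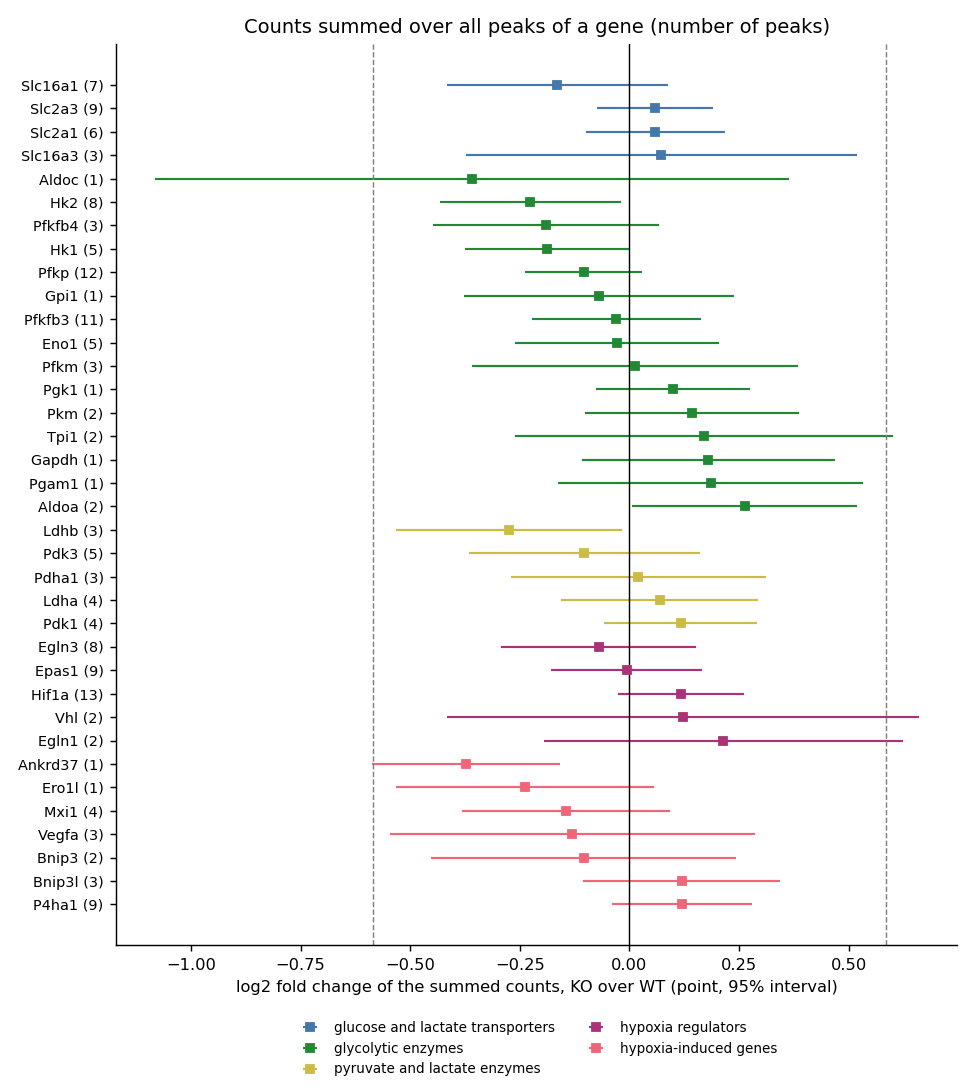
Log2 fold change, KO over WT, with its 95% interval for the counts summed over all peaks of each of the 36 listed genes, with the number of peaks in brackets and dashed lines at 1.5-fold either way. The genes lie on both sides of 0, from -0.37 at Ankrd37 to 0.26 at Aldoa.

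A wider list of 77 other glycolysis, pyruvate and hypoxia genes, written with earlier results of these data known, had peaks at 68 genes. Of its 202 peaks 153 were tested, and 1 was called by edgeR, a peak 21414 bp outside Bhlhe40 that was lower in KO and already known when the list was written. Bhlhe40 encodes a transcription factor induced by hypoxia and by T cell activation. This peak held 63.0 ± 3.89 CPM in WT and 30.4 ± 1.16 CPM in KO (log2 fold change -1.03, adjusted p = 0.000265 by edgeR). At an unadjusted p under 0.05, 6 peaks were higher (3.92%, beside 4.74% of all tested peaks) and 11 lower (7.19%, beside 4.73%). The 153 tested peaks had a median log2 fold change of -0.004. The next smallest p was at a peak inside Car9, the carbonic anhydrase known as a HIF target, at 23.0 ± 4.41 CPM in WT and 10.8 ± 3.04 CPM in KO. Every KO library was lower there, and the peak was not called (log2 fold change -1.02, adjusted p = 0.16 by edgeR). Summed over its peaks Bhlhe40 was called (log2 fold change -0.30, adjusted p = 0.0317) and Car9 was not (log2 fold change -1.03, adjusted p = 0.0681), both by edgeR. Of the 65 tested gene sums of the wider list, 7 were higher at an unadjusted p under 0.05 (10.8%, beside 5.38% of all genes) and 5 were lower (7.69%, beside 6.02%). Those of Egln2, a prolyl hydroxylase like Egln1, and Siah2, a ubiquitin ligase, were higher in every KO library and not called (log2 fold changes 0.35 and 0.33, adjusted p of 0.107 and 0.185 by edgeR), and were named after their values were seen.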

How the data were processed

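ATAC-seq of 4 WT and 3 Opa1 KO Treg cell samples was compared. The authors deposited whole-number counts per peak for 7 libraries, not normalized. The submitters' processing notes name the mm10 build, MACS2 2.1.1, BWA 0.7.16, bedtools 2.25.0, Trimmomatic 0.36, SAMtools 1.9 and Picard 2.9.4. Their settings and any shift of reads for the transposase are unstated there. Between 78% and 86.3% of the counts per library were even, so both mates of a pair may have been counted, and counts halved were tried. Positions are as deposited, and whether starts count from 0 or 1 is not stated.

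Peaks were matched to RefSeq protein-coding genes (GRCm38.p6). edgeR 4.0.16 (R 4.3.3; quasi-likelihood, robust, filterByExpr minimum count 10, TMM factors 0.985 to 1.013, Benjamini-Hochberg at 0.05) was run on all 38041 tested peaks and on 13290 gene sums. DESeq2 1.42.0, limma 3.58.1 and other alternatives are in the closing section. On simulated counts over 35931 peaks, KO against WT, 10.4%, 56.7% and 83.3% of peaks changed 1.5-fold, 2-fold and 4-fold were called, and of gene sums 62.7%, 86.6% and 100%. The simulations called 106 peaks and 170 gene sums in all, beside 33 and 46 in the data. With fewer changes the shares recovered can be lower. Changed peaks and sums were drawn from all tested ones, not at the levels of the listed genes.

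The members, lists and tests were chosen with earlier results of these data known. Peaks named are the strongest tested peak of each gene, the 12 with the smallest p, the called peak and the next smallest p of the wider list, and the 6 gene sums with the smallest p. Other start peaks, peaks whose groups did not overlap and the Egln1 sum were named after their values were seen.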

Additional observations from a re-analysis of the deposited data

Results flagged for a closer look

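Among 52 sets of WT values tested for a library far from the others, 2 were marked, and chance marks about 1 set in 20. At the Pfkm peak 550 bp inside the gene, which also touches Senp1, WT replicate 2 held 29.8 CPM and the other WT libraries 16.9 to 18.9 CPM, a gap of 0.843 of the whole range. At the Epas1 peak 19232 bp outside the gene, WT replicate 3 held 22.9 CPM and the others 8.43 to 10.8 CPM, a gap of 0.834 of the range.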

How the results depend on the processing

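No peak or gene sum of the listed genes was called in any alternative. Of 51 named peaks and gene sums, 39 kept their direction in all alternatives. The replicate numbers did not pair the samples (correlations of deviations 0.011, -0.012 and 0.004), so the replicate block is one alternative among others: it changed no call at the listed genes, gave a median of 0.021 over the listed peaks (-0.037 without it), called 13 of all peaks (5 higher, 8 lower) and 23 gene sums (6 higher, 17 lower), and left 0 listed sums higher at p under 0.05. It turned the direction at Slc16a1 (0.1), Slc16a3 (0.135) and Epas1 (0.025), and counts halved did so at Vhl (-0.021). Leaving out 1 library turned it at Eno1 (-0.173 to 0.042), Epas1 (-0.113 to 0.016), Gpi1 (-0.209 to 0.054), Mxi1 (-0.115 to 0.017), P4ha1 (-0.087 to 0.184), Pdha1 (-0.138 to 0.071), Pfkm (-0.056 to 0.346), Pfkp (-0.226 to 0.049), Slc16a1 (-0.206 to 0.099), Slc16a3 (-0.319 to 0.16), Vegfa (-0.164 to 0.2) and Vhl (-0.069 to 0.142), each the strongest peak of its gene.

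The median over the listed peaks was -0.016 with no filter, -0.062 under a minimum mean count of 20, -0.064 with library totals only and with counts halved, -0.01 with loess offsets, 0.032 with peaks within 1 kb of a gene end, and -0.043 to 0.02 leaving out 1 library. The listed peaks higher at p under 0.05 were 2 under a minimum mean count of 20, library totals, loess offsets or counts halved, 0 within 1 kb, and 3 to 6 leaving out 1 library. Those lower were 4 among overlapping peaks, 2 within 1 kb, and 5 to 11 leaving out 1 library. Of all peaks, a mean count of at least 20 called 60 (35 lower), DESeq2 55 (29 higher, 26 lower), limma-voom 55 (35 higher), counts halved 82 (35 higher, 47 lower), library totals 23 lower, loess offsets 25 lower, and leaving out 1 library 15 to 43 (7 to 25 higher, 7 to 18 lower). Of gene sums, DESeq2 called 18 (7 higher, 11 lower), counts halved 82 (24 higher, 58 lower), WT replicates 2 and 3 summed 20 higher, and leaving out 1 library 8 to 67 (1 to 24 higher, 7 to 43 lower). Listed gene sums higher at p under 0.05 were 0 under a minimum mean count of 20, library totals, loess offsets, DESeq2 or overlapping peaks alone, and 0 to 1 leaving out 1 library. Those lower were 2 with DESeq2, limma-voom or WT replicates 2 and 3 summed, and 1 to 4 leaving out 1 library. The cause was not tested. The log2 fold change was measured less precisely outside the genes (median SE 0.337) than at the starts (0.167), and the part of depth in this was not tested.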
